A study of Homo sapiens with 24 samples.

Results

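The response of LNCaP cells to 24 h of the androgen DHT (dihydrotestosterone) was described against vehicle. LNCaP is an established line from a lymph node metastasis of a human prostate adenocarcinoma that still responds to androgen. The comparison used 6 of the 24 samples of the series, 2 of DHT and 4 of vehicle, chosen by their labels and not by any measured value. All of the cells had first been kept for 3 days in medium without phenol red and with charcoal-stripped serum, so the vehicle cells were depleted of hormone too. The treated cells then received 10 nM DHT for 24 h. The labels give no time for vehicle. The vehicle table has 4 columns, of which 3 carry the replicate number 1. These 3 were summed, which left 2 vehicle libraries against 2 DHT 24 h libraries. The labels call the replicates biological, those of vehicle included, and do not say how the cultures were kept apart. Every sample came from 1 cell line. The p-values and standard errors (SE) rest on the spread between replicate libraries, estimated over the 10 libraries of 5 conditions in this experiment. Cells given the same dose for 4 h and cells given the antiandrogen enzalutamide were part of the same experiment and are used below for side-by-side values.

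DHT is the most potent natural androgen. Androgens act on transcription through response elements in DNA, which raises some genes and lowers others. In the prostate they drive the secretory programme of luminal cells, including the kallikrein proteases and the synthesis of lipids, and in androgen-dependent cancer cells they also support proliferation. In bulk RNA, a change in the RNA of each cell and a change in the mix of cells cannot be told apart.

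The 4 libraries held 38894876 to 59985287 estimated counts. Levels are given as CPM, counts relative to the TMM-scaled size of the library, and are compared for 1 gene between samples and not between genes. The SD of the log2 ratio between replicates was 0.286 for vehicle and 0.285 for DHT 24 h. The 6 luminal prostate markers summed to 3505 and 3522 CPM in vehicle and to 4764 and 4836 CPM at DHT 24 h, and none of the 6 was at 0. KLK3, itself induced by androgen, made up the whole rise, and the other 5 summed to 3263 and 3251 CPM against 2669 and 2697 CPM. The 4 basal markers summed to 0.0495 and 0.127 CPM in vehicle and to 0.439 and 0.484 CPM at DHT 24 h. For the 5 fibroblast markers these sums were 25.7 and 26.1 CPM against 15.3 and 17.3 CPM, nearly all of it COL1A1, and for the 3 endothelial markers they were 15.6 and 16.4 CPM against 20.7 and 21.4 CPM, nearly all of it VWF. The 4 leukocyte markers summed to 1.52 and 1.54 CPM against 2.80 and 2.91 CPM, with CD3E at 0 in all 4 libraries.

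Of 15555 genes tested, 323 were more than 2-fold higher at DHT 24 h than in vehicle with an unadjusted p below 0.05 (2.08% of the genes tested) and 588 were more than 2-fold lower (3.78%). In the text below a gene rose or fell when its p from edgeR's quasi-likelihood test, adjusted over all genes by the Benjamini-Hochberg method, was below 0.05. By that rule 4182 genes rose (26.9%) and 3601 fell (23.2%), which is 50.0% of the genes tested, and a list is read against these shares. Most of these changes were small, with 78.0% of the rises and 67.1% of the falls under 1.5-fold. Over 4-fold there were 105 rises and 105 falls, and these numbers ran from 65 to 133 and from 45 to 164 over the alternatives. The balance depended on the scaling. With TMM factors 53.7% of the called genes were higher, and with library size alone 42.1% were, at a median log2 fold change over all genes of -0.06 in place of 0.00. The column names place the DHT libraries in different sets, and both sets also hold a vehicle column numbered replicate 1. Within both sets, 319 of the 323 genes were higher and 547 of the 588 were lower. These genes were called from the same libraries, so most of this agreement was fixed in advance and is no independent check.

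**Figure D1:**
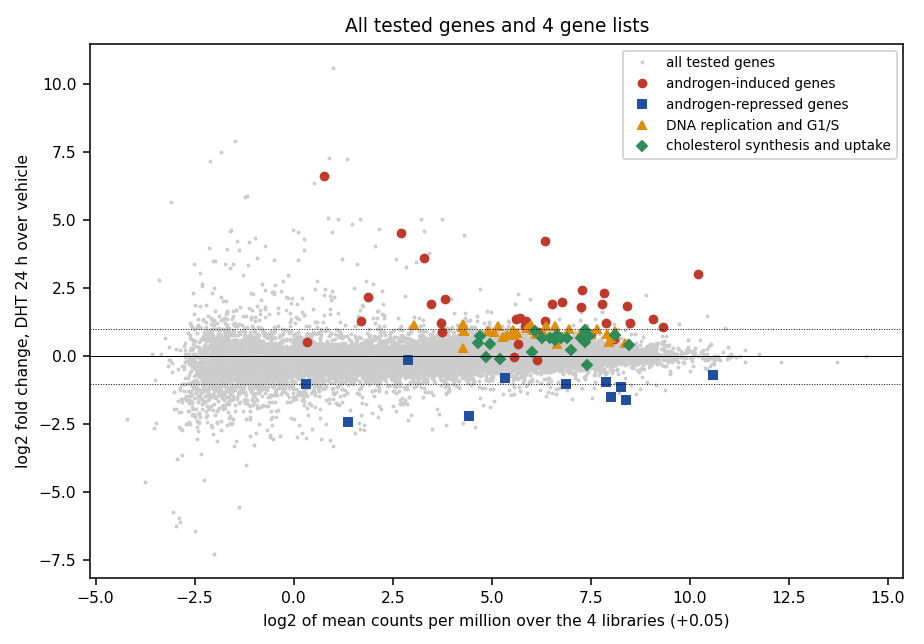
Each point is 1 of 15555 tested genes, with the log2 of its mean CPM over the 4 libraries on the horizontal axis and the log2 fold change of DHT 24 h over vehicle on the vertical axis; dotted lines mark 2-fold, and fitted changes of the lowest genes depend on the prior count. Androgen-induced genes (red) reach a log2 fold change of 6.65, the androgen-repressed genes (blue) lie between -2.43 and -0.13, and the replication genes (orange) all lie between 0.30 and 1.20.

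The known androgen-induced genes had the highest median of the 25 pathway lists. Of 37 tested members 35 rose, 1 fell (MED28, -0.15) and 1 did neither (LIFR, -0.04), with a median log2 fold change of 1.31 against 0.00 over all genes tested, and 26 were more than 2-fold higher. STEAP4, a metalloreductase of the cell surface, had 2 and 1 counts in vehicle and 182 and 126 counts at DHT 24 h. The ratio of its summed counts per library size was 105, with an exact 95% interval of 35.6 to 512 that covers counting error only. HPGD, which degrades prostaglandins, was at 0.578 and 0.457 CPM in vehicle and at 12.7 and 12.2 CPM at DHT 24 h, a log2 fold change of 4.55 ± 0.15 (SE, n = 2 per group; edgeR adjusted p = 1.05e-10). In both genes the lowest DHT library lay far above the highest vehicle library.

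The kallikreins of the prostate rose together. KLK2, a protease that activates the KLK3 protein, was at 8.79 and 7.49 CPM in vehicle and at 157 and 153 CPM at DHT 24 h, a log2 fold change of 4.23 ± 0.093 (SE, n = 2; edgeR adjusted p = 1.72e-12). KLK3, which encodes PSA, the serum marker of prostate cancer, was at 259 and 254 CPM in vehicle and at 2095 and 2139 CPM at DHT 24 h. The genes are close copies, and reads that match both were divided between them by the counting. KLK4 and KLK15 also rose, by log2 fold changes of 1.41 and 1.27. TRPM8, a cold-gated calcium channel of the prostate epithelium, went from 1.67 and 1.19 CPM to 18.2 and 17.9 CPM. The transporter gene SLC45A3 went from 46.6 and 50.7 CPM to 262 and 263 CPM, and the co-chaperone gene FKBP5, which acts with heat shock proteins, from 91.7 and 89.5 CPM to 348 and 344 CPM. The groups did not overlap in any of these genes. The same held for all 315 genes that rose more than 2-fold, so it adds nothing to their calls.

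The stretches before the start sites of KLK3 and PMEPA1 are shown because among the windows of the induced genes they hold a match to the androgen response element, and that of KLK2 is shown beside its close copy KLK3. The element was searched as the half-site AGAACA and its reverse complement TGTTCT in that order, with any 3 bases between them, at up to 2 mismatches over the 12 fixed bases, and the half-site was also searched alone in both orientations. Windows ran from 250 bases before to 50 bases after each annotated start (RefSeq, GRCh38.p14), and the 250 bases before the start are printed 5′ to 3′ on the strand of the gene, with capitals for the match to the element. KLK3 (chr19:50854665-50854914, plus strand) holds a match with 2 mismatches from -170 to -156, counted from the start site. KLK2 (chr19:50873189-50873438, plus strand) has its best match from -176 to -162, with 3 mismatches, which is past the limit, and it was added after its letters were seen. PMEPA1 (chr20:57710578-57710827, minus strand), an inhibitor of TGF-beta signalling, holds one with 2 mismatches from -238 to -224 before 1 of its 4 starts.
KLK3: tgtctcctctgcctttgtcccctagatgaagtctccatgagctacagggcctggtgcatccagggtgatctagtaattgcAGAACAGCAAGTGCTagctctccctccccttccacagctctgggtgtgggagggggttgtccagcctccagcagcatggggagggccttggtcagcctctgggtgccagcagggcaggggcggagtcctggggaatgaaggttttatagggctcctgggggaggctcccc
KLK2: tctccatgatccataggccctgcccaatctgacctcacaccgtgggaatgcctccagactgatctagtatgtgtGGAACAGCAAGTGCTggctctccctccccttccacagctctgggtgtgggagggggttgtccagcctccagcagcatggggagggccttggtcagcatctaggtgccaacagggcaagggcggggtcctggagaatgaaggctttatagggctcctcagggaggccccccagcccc
PMEPA1: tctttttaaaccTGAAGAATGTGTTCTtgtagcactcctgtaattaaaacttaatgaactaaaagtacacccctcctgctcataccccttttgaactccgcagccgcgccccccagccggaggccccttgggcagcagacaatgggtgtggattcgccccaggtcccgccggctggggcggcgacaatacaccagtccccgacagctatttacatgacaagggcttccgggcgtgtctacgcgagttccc

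Aligned without gaps at an offset of 6 bases, the KLK3 and KLK2 stretches were identical at 185 of 244 bases (75.8%). Windows were found for 29 of the 37 genes of the induced list, in all 55 windows since some genes have several starts. Of these, 2 held the full element (3.64%) and 8 a half-site (14.5%). Over all 35116 windows the shares were 1.41% and 14.8%. With 3 mismatches allowed, 10 of the 55 windows (18.2%) and 10.8% of all windows held the element. Of the 10 largest rises 7 matched, and 1 of their 14 windows held a half-site. Of the 10 largest falls 7 matched, and 2 of their 8 windows, those of PLD1 and ADM, held a half-site. CHRNA2, ST6GALNAC1, ZNF812P, GAGE5, GAGE7, KCNU1 and TMPRSS2 had no window. A match is a description of letters and not a measured site.

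**Figure D2:**
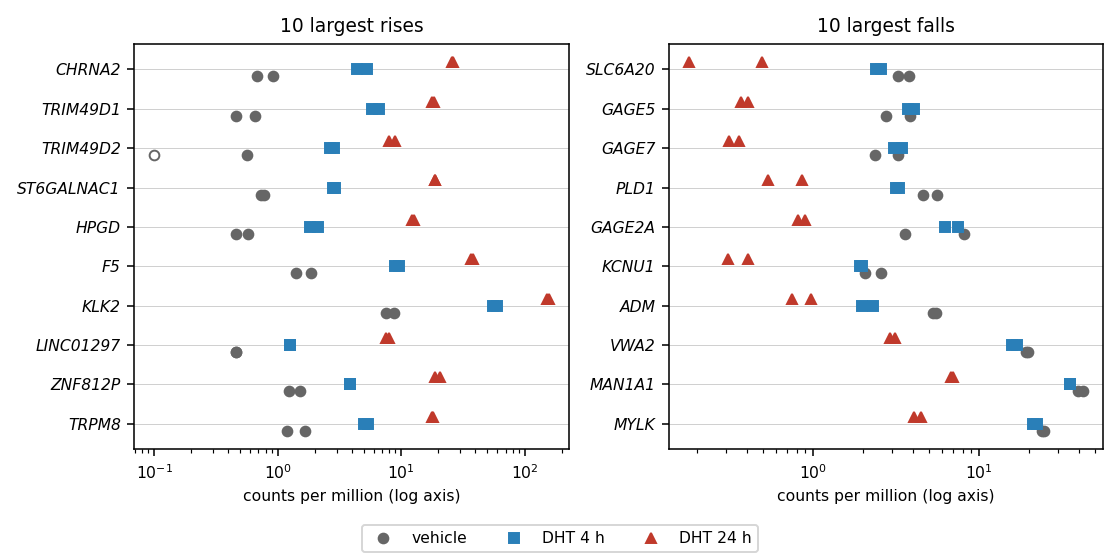
CPM on a log axis in each vehicle (grey circles), DHT 4 h (blue squares) and DHT 24 h (red triangles) library for the 10 largest rises and the 10 largest falls; an open symbol marks a value of 0, drawn at 0.1. For the rises the 4 h libraries lie between vehicle and 24 h, whereas for most of the falls they lie beside vehicle, as for MYLK at 22.4 and 21.1 CPM.

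Beyond the members of the induced list, the 10 largest rises at a mean log2 CPM of at least 1 included the sialyltransferase gene ST6GALNAC1. Its enzyme adds sialic acid to O-linked sugars. Whether genes outside that list were known androgen targets was not examined. ST6GALNAC1 went from 0.776 and 0.736 CPM to 18.7 and 18.9 CPM, a log2 fold change of 4.62 ± 0.13 (SE, n = 2; edgeR adjusted p = 2.05e-11). F5, which encodes coagulation factor V, went from 1.88 and 1.40 CPM to 37.1 and 38.3 CPM. The long noncoding RNA LINC01297 went from 0.463 and 0.457 CPM to 7.59 and 7.95 CPM. ZNF812P, a zinc-finger pseudogene, went from 1.52 and 1.24 CPM to 20.8 and 18.9 CPM. The rises of CHRNA2, a nicotinic receptor subunit, and of the near-identical TRIM49D1 and TRIM49D2 completed the 10 with HPGD, KLK2 and TRPM8. Reads of the TRIM49D pair could not be assigned with certainty, and vehicle replicates of TRIM49D2 were at 0.562 and 0.00 CPM.

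Genes of several functions made up the 10 largest falls at the same minimum level. MAN1A1, an alpha-mannosidase of the Golgi that trims N-linked sugars, went from 42.8 and 39.5 CPM to 6.79 and 7.03 CPM, a log2 fold change of -2.58 ± 0.078 (SE, n = 2; edgeR adjusted p = 3.55e-11). MYLK, myosin light chain kinase, went from 23.9 and 24.9 CPM to 4.08 and 4.49 CPM. VWA2, which encodes a protein of the extracellular matrix, went from 19.2 and 19.8 CPM to 3.13 and 2.93 CPM. In these genes the replicates lay close together and the groups far apart, and only genes without overlap could enter the 10. PLD1, a phospholipase that makes phosphatidic acid, went from 5.57 and 4.62 CPM to 0.860 and 0.535 CPM. ADM, which encodes the vasodilator peptide adrenomedullin, went from 5.53 and 5.33 CPM to 0.750 and 0.969 CPM, and the potassium channel gene KCNU1 from 2.56 and 2.06 CPM to 0.403 and 0.306 CPM. SLC6A20, a transporter of proline and related amino acids, was among the 10 as well. The cancer-testis antigen genes GAGE5, GAGE7 and GAGE2A share almost all of their sequence, so the division of reads among them is uncertain, and the vehicle libraries differed for GAGE2A, at 3.58 and 8.15 CPM. Other GAGE genes went the other way. Of 17 tested GAGE genes 6 fell (35.3%) and 4 rose (23.5%), with a median log2 fold change of 0.13 and a range of -3.08 to 2.68. More than 2-fold changes were seen in both directions, so a fall of GAGE genes as a group was not shown.

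Genes known to be repressed by androgen moved the other way from the induced list. Of 11 tested members 10 fell, none rose and 1 did neither, with a median log2 fold change of -1.01. OPRK1, the kappa opioid receptor, went from 33.5 and 37.3 CPM to 7.17 and 8.21 CPM. CAMK2N1, an inhibitor of the calcium/calmodulin kinase CaMKII, went from 509 and 499 CPM to 170 and 165 CPM. DDC, the decarboxylase that makes dopamine and serotonin, went from 387 and 380 CPM to 136 and 134 CPM, and NOV, a matricellular protein, from 4.11 and 4.44 CPM to 0.695 and 0.917 CPM. BCL2, which blocks apoptosis, was the member that did not pass, at a log2 fold change of -0.13. Of the neuroendocrine and neuronal markers 6 were tested, of which DDC, the neuropeptide gene NTS (-1.98) and ENO2 (-0.48) fell and none rose.

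Genes of DNA replication and the G1/S transition rose without exception among those tested, 33 of 33, with a median log2 fold change of 0.90 and a range of 0.30 to 1.20. The replication factor MCM10 went from 40.1 and 38.5 CPM to 91.0 and 86.3 CPM (log2 fold change 1.17 ± 0.050, SE, n = 2; edgeR adjusted p = 9.03e-10). CDC6, which loads the MCM helicase on origins, went from 63.1 and 58.1 CPM to 135 and 131 CPM. E2F8, a transcription factor of the S phase, went from 11.7 and 11.9 CPM to 27.7 and 26.4 CPM, and the polymerase subunit gene POLE2 from 5.32 and 4.72 CPM to 12.4 and 10.1 CPM. The rises were thus close to 2-fold, and 10 of the 33 exceeded it.

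Mitotic genes rose as uniformly but by less, 30 of 30 with a median log2 fold change of 0.54. AURKB, the kinase of the chromosomal passenger complex, had a log2 fold change of 0.93, the checkpoint kinase gene TTK 0.83, the proliferation marker MKI67 0.82 and the kinetochore gene NDC80 0.72. Of 22 genes of homologous recombination and DNA repair 20 rose (median 0.72), among them the nuclease gene EXO1 (1.19), the helicase gene BLM (1.07), FANCA (1.00) and XRCC3 (0.97). BARD1 fell (-0.21) and ATM did not pass the test (0.02). These lists have no shared members, but their genes vary together through the cell cycle and are not independent.

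Among the inhibitors of cyclin-dependent kinases and the D-type cyclins, 9 were tested, 4 rose and 4 fell. CDKN1C (log2 fold change -0.95), CDKN2B (-0.69), CDKN1B (-0.30) and CDKN1A, the p21 gene (-0.29), fell, whereas CDKN2D (0.49), CDKN2C (0.44) and CCND3 (0.40) rose. CCND1, cyclin D1, was at 372 and 370 CPM in vehicle and at 390 and 393 CPM at DHT 24 h, and its call was lost in 11 of the 17 alternatives. The fall of CDKN2B no longer passed without DHT 24 h replicate 1 (-0.49). It also did not pass with the set of the column names as a term (-0.46, edgeR adjusted p = 0.101). MYC rose, from 171 and 173 CPM to 214 and 217 CPM, and all 21 tested genes of MYC and ribosome biogenesis rose with a median of 0.40, led by the nucleolar genes NOP16 (0.77), NOP56 (0.62), NOP2 (0.62) and RRP9 (0.60).

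**Figure D3:**
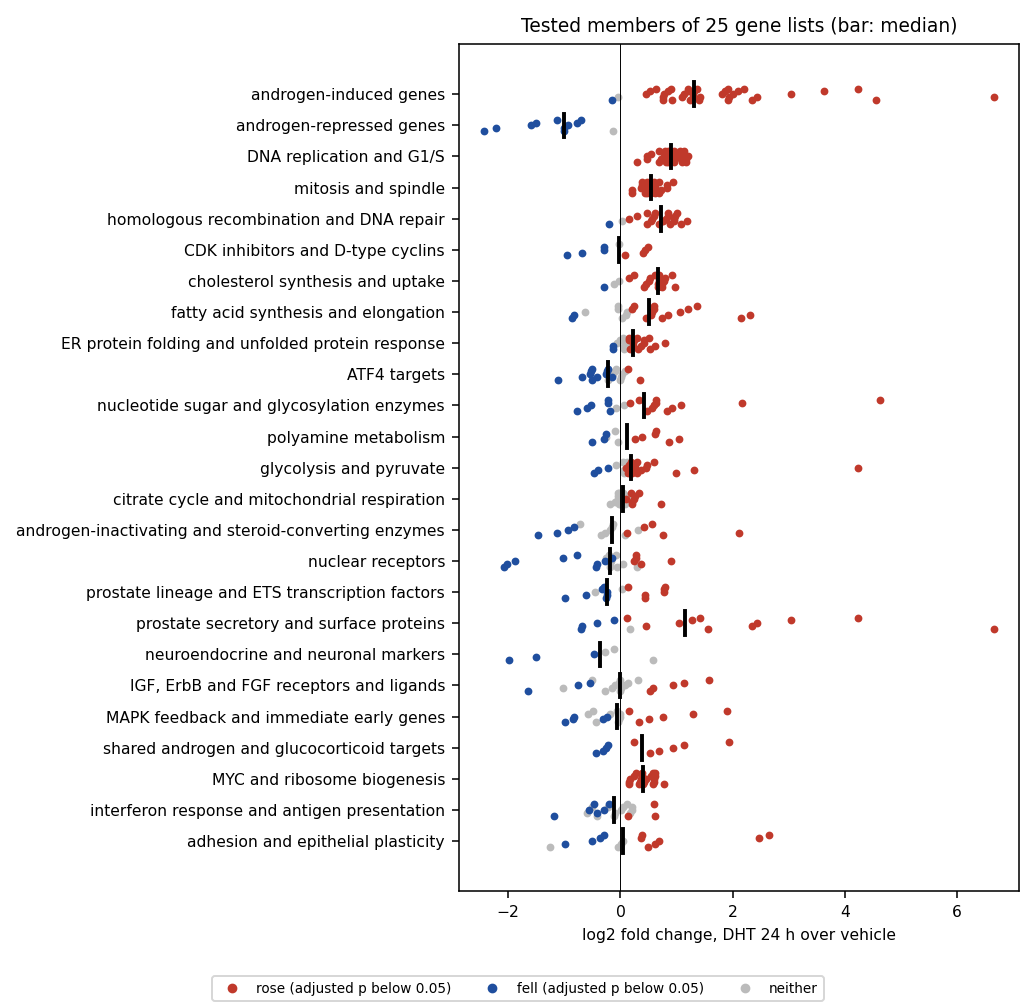
Log2 fold change of DHT 24 h over vehicle for each tested member of 25 gene lists, coloured by whether it rose, fell or did neither at an adjusted p below 0.05, with the list median as a black bar. The replication, mitosis and ribosome biogenesis lists lie wholly above 0, the androgen-repressed list wholly below 0, and the other lists hold members on both sides.

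The RNA of most tested genes rose in both branches of lipid synthesis, that of cholesterol and that of fatty acids. Of 21 tested genes of cholesterol synthesis and uptake 18 rose, 1 fell (TM7SF2, -0.30) and 2 did neither (HSD17B7, -0.03, and STARD4, -0.11), with a median log2 fold change of 0.67. FDFT1, squalene synthase, which commits the pathway to sterols, went from 197 and 210 CPM to 356 and 349 CPM, a log2 fold change of 0.79 ± 0.037 (SE, n = 2; edgeR adjusted p = 1.98e-09). LSS, which closes the sterol rings, went from 69.3 and 80.0 CPM to 121 and 132 CPM, and the isomerase gene EBP from 46.0 and 48.5 CPM to 83.1 and 95.5 CPM. INSIG1, which retains the SREBP activator in the ER, went from 97.0 and 122 CPM to 223 and 208 CPM. The groups did not overlap in these genes, which were chosen as the largest changes of the list, and none of the list was more than 2-fold higher.

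Of 22 tested genes of fatty acid synthesis and elongation 14 rose, 2 fell and 6 did neither (median 0.50). FASN, fatty acid synthase, went from 1210 and 1262 CPM to 2440 and 2708 CPM. The elongase gene ELOVL7 went from 17.5 and 16.6 CPM to 86.8 and 81.6 CPM (log2 fold change 2.30 ± 0.058, SE, n = 2; edgeR adjusted p = 6.91e-12), and ELOVL5 from 308 and 299 CPM to 795 and 763 CPM. The levels of these genes at DHT 24 h lay above both vehicle libraries, as in every gene that rose more than 2-fold. The elongase gene ELOVL2 (2.14) was low in all 4 libraries, and ACSL3, which activates fatty acids, had a log2 fold change of 1.21. SCD5 (-0.87) and ACSL4 (-0.82) fell, both of them paralogs of members that rose.

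**Figure D4:**
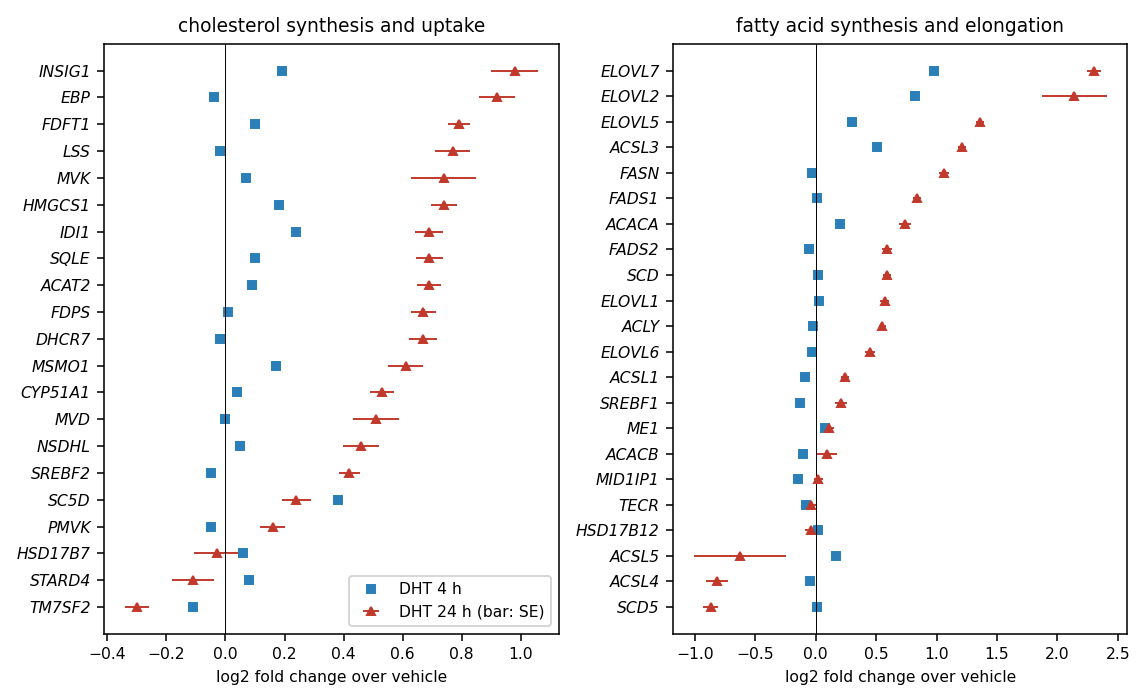
Log2 fold change over vehicle for each tested gene of cholesterol synthesis and uptake and of fatty acid synthesis and elongation, at DHT 24 h (red triangles, bar SE) and at DHT 4 h (blue squares); both times were compared with the same vehicle libraries. FDFT1 stood at 0.79 and 0.10 at the respective times, EBP at 0.92 and -0.04 and FASN at 1.06 and -0.03.

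Genes of the secretory pathway moved unevenly. Of 20 tested nucleotide sugar and glycosylation enzymes 12 rose and 6 fell. After ST6GALNAC1 the largest rises were those of CSGALNACT1 (log2 fold change 2.17), which starts chondroitin sulfate chains, UAP1 (1.08), which makes UDP-GlcNAc, and GALNT7 (0.92), which adds to O-linked sugars. UAP1 went from 225 and 223 CPM to 487 and 457 CPM. Of 23 genes of ER protein folding 15 rose and 2 fell, with a median of 0.22. CREB3L4, an ER-anchored transcription factor of the prostate (0.80), SDF2L1 (0.62), CRELD2 (0.53) and MANF (0.50) led the rises. HSPA5, the chaperone BiP, fell, from 871 and 854 CPM to 795 and 779 CPM.

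Targets of ATF4, the transcription factor of amino acid and ER stress, gave the opposite balance, with 2 rises and 11 falls among 21 tested (median -0.23). ALDH1L2, a mitochondrial folate enzyme, had a log2 fold change of -1.11, CHAC1, which degrades glutathione, -0.68, and DDIT3, the CHOP gene, -0.54. PPP1R15A had a value of -0.52, and its call was lost without vehicle replicate 1 (-0.42, adjusted p = 0.0988) and without DHT 24 h replicate 1 (-0.36, adjusted p = 0.124). The cystine transporter gene SLC7A11, at -0.23, passed the test in 7 of the 17 alternatives, and 1 of these left out vehicle replicate 2 (-0.34, edgeR adjusted p = 0.0256).

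In polyamine metabolism, which is prominent in the prostate, 6 of 12 tested genes rose and 3 fell. SMS, spermine synthase, went from 108 and 111 CPM to 228 and 222 CPM, SRM, spermidine synthase, from 136 and 138 CPM to 210 and 216 CPM, and ODC1, the first enzyme of the pathway, from 614 and 599 CPM to 812 and 775 CPM. SAT1, which acetylates polyamines for export, rose as well (0.87), as did ARG2 (0.62). Of 28 genes of glycolysis and pyruvate 19 rose and 3 fell, mostly by little (median 0.18). MPC2, a subunit of the mitochondrial pyruvate carrier, went from 189 and 193 CPM to 476 and 472 CPM, and HK2, hexokinase 2, from 38.5 and 37.8 CPM to 76.2 and 75.6 CPM. The glucose transporter gene SLC2A3 had 3 and 0 counts in vehicle and 32 and 25 at DHT 24 h, a ratio of 19.4 with an exact 95% counting interval of 6.32 to 97.0, and PFKFB3 had a log2 fold change of 0.60. Of 26 genes of the citrate cycle and respiration 8 rose, 30.8% against 26.9% over all genes, and none fell in the fit used here. With library size alone 7 rose and 4 fell. Some alternatives with TMM factors gave falls too, 2 with the 4 vehicle columns as separate libraries. There was 1 fall under a filter of CPM of at least 1 in 2 libraries and 1 with the set of the column names as a term. IDH1 (0.72), IDH3A (0.33), IDH2 (0.26) and TFAM (0.24) had the largest changes of the 8 that rose.

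Among the enzymes that inactivate or convert androgens, 5 of 17 tested members rose (29.4%) and 4 fell (23.5%), close to the shares of 26.9% and 23.2% over all genes. UGT2B15 and UGT2B17, which conjugate DHT to glucuronic acid, fell, UGT2B15 from 444 and 399 CPM to 199 and 185 CPM and UGT2B17 from 316 and 304 CPM to 165 and 158 CPM. Their relative UGT2B28 rose, from 5.63 and 6.09 CPM to 25.9 and 24.6 CPM (log2 fold change 2.11 ± 0.076, SE, n = 2; edgeR adjusted p = 1.82e-10). Genes of this family are similar in sequence, and reads shared by them were divided by the counting. AKR1C3, which makes testosterone from androstenedione, had 14 and 10 counts in vehicle and 5 and 3 at DHT 24 h, and its call was lost on leaving out any 1 of the 4 libraries (adjusted p 0.0974 to 0.122).

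Among 23 tested nuclear receptors 5 rose and 9 fell. PGR, the progesterone receptor, went from 2.03 and 1.80 CPM to 0.530 and 0.510 CPM, NR4A2 from 1.16 and 1.02 CPM to 0.183 and 0.382 CPM, and RORA from 1.39 and 1.50 CPM to 0.787 and 0.586 CPM. All of these were low in every library. NR2F1 had 12 and 11 counts in vehicle and 5 and 0 at DHT 24 h, a ratio of 0.222 with an exact 95% counting interval of 0.066 to 0.598. Its call was lost without vehicle replicate 2 (-1.85, adjusted p = 0.105), without vehicle replicate 1 (-2.34, adjusted p = 0.0507) and without DHT 24 h replicate 2 (-1.32, adjusted p = 0.133). NR3C1, the glucocorticoid receptor, did not pass the test (-0.26, adjusted p = 0.505 by edgeR) and its groups overlapped.

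Transcription factors of the prostate lineage changed in both directions, with 6 rises and 7 falls among 15 tested. SPDEF, an ETS factor of luminal cells, went from 55.4 and 57.3 CPM to 92.8 and 99.0 CPM, and KLF4 had a log2 fold change of 0.77. SOX4 went from 368 and 363 CPM to 187 and 181 CPM. The pioneer factor FOXA1 and the lineage factors HOXB13 and GATA2 fell by little, FOXA1 from 495 and 499 CPM to 422 and 421 CPM, HOXB13 from 506 and 545 CPM to 433 and 448 CPM and GATA2 from 223 and 237 CPM to 178 and 187 CPM. Of 16 tested secretory and surface proteins 11 rose and 4 fell (median 1.15). FOLH1, the PSMA gene, fell from 1947 and 1859 CPM to 1191 and 1153 CPM, and ACPP, prostatic acid phosphatase, fell too (-0.69), while the protease gene TMPRSS2 rose from 75.6 and 74.7 CPM to 379 and 383 CPM.

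Growth factor genes showed single large changes rather than a shift of the list. Of 20 tested IGF, ErbB and FGF genes 5 rose and 3 fell, close to the shares over all genes. IGF1R went from 24.7 and 23.6 CPM to 52.1 and 53.6 CPM and its ligand IGF1 from 5.88 and 4.72 CPM to 10.6 and 10.0 CPM, and FGFR3 had a log2 fold change of 1.57. IGFBP5 had under 20 counts in every library, and its call (-1.65) was lost on leaving out any 1 of the 4 libraries (adjusted p 0.0833 to 0.169). Of 20 MAPK feedback and immediate early genes 6 rose and 5 fell, also close to those shares, with the phosphatase gene DUSP4 at 1.30, FOSL2 at -0.85 and EGR1 at -0.98. The call of EGR1 was lost without vehicle replicate 1 (-0.68) and without DHT 24 h replicate 1 (-0.86). SPRY4, with 2 and 3 counts against 7 and 11, lost its call without vehicle replicate 1 and without DHT 24 h replicate 2 (1.31 in both). With the set of the column names as a term EGR1 (-0.93, edgeR adjusted p = 0.075) and SPRY4 (1.87, edgeR adjusted p = 0.139) did not pass.

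Of 15 tested adhesion genes 7 rose (46.7%, against 26.9% over all genes) and 4 fell (26.7%, against 23.2%), with a median of 0.04. The transcription factor gene SNAI2 went from 0.149 and 0.229 CPM to 1.10 and 1.20 CPM, KRT19 from 0.578 and 0.432 CPM to 2.74 and 3.03 CPM, TWIST1 from 2.96 and 3.20 CPM to 5.05 and 4.79 CPM and the integrin gene ITGB4 from 4.94 and 6.45 CPM to 2.34 and 3.47 CPM. KRT18, a luminal keratin, rose from 324 and 341 CPM to 450 and 485 CPM. The basal keratin gene KRT14 had 1 and 2 counts in vehicle and 18 and 16 at DHT 24 h, a ratio of 11.6 with an exact 95% counting interval of 3.64 to 59.0, and KRT5, KRT15 and TP63 were too low to test. Of 21 interferon and antigen presentation genes 3 rose and 6 fell. IRF1 (-1.19) and MX1 (-0.56) fell and B2M (0.62) and OAS3 (0.60) rose, the call of MX1 being lost without vehicle replicate 1 (-0.54, adjusted p = 0.0843) and without DHT 24 h replicate 1 (-0.50, adjusted p = 0.111). The single markers of other cell types that passed were LUM (-1.18), COL1A1 (-0.65), VWF (0.40) and CD68 (0.97), and their part in the lists was not tested.

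The response at 24 h was set against that at 4 h by testing these DHT groups directly, since both share the vehicle libraries. By the column names both 4 h libraries belong to 1 set and the 24 h libraries to the other sets, so that time and set differ together, and vehicle alone has columns in every set. Of all genes tested 26.3% were higher at 24 h than at 4 h and 23.5% were lower, 4098 and 3648 genes, and with the set as a term these were 2832 and 2513. All 33 replication genes, all 30 mitotic genes and all 21 genes of ribosome biogenesis were higher at 24 h. At 4 h against vehicle none of the replication genes, 2 of the mitotic genes and none of the ribosome genes had risen. Of the ribosome genes 1 had fallen. The share of all genes called at 4 h against vehicle is not given here, so these counts have no background. In the same order, the median log2 fold changes of these lists at 4 h were -0.01, 0.05 and -0.07. Of the 21 cholesterol genes 17 were higher at 24 h, and of the 11 androgen-repressed genes 10 were lower. With the set as a term 33 replication genes, 28 mitotic genes, 21 ribosome genes and 17 cholesterol genes were higher and 10 androgen-repressed genes were lower.

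The induced list held both early and late members. At 4 h 33 of its 37 genes had already risen, with a median log2 fold change of 0.97, again without a share of all genes beside the count. Against 4 h, 24 of the 37 were higher at 24 h and 8 were lower. SGK1, a kinase gene that glucocorticoids also induce, stood at a log2 fold change over vehicle of 3.37 after 4 h and 0.52 after 24 h, and LIFR, a cytokine receptor gene, 0.92 and -0.04. MAF, a leucine zipper factor gene, went from 2.06 to 1.21 and ZBTB16 from 1.81 to 1.13. By contrast INPP4B, a lipid phosphatase gene, stood at 0.14 at 4 h and 2.10 at 24 h, and GNMT, a glycine methyltransferase gene, at 0.13 and 1.92. Of the 10 targets shared by androgens and glucocorticoids 6 were lower at 24 h than at 4 h, among them PER1, the clock gene (1.49 at 4 h, 0.94 at 24 h), and 1 was higher, while CEBPD had similar values (0.79 and 0.68). SNAI2 likewise stood at 4.39 at 4 h and 2.64 at 24 h.

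**Figure D5:**
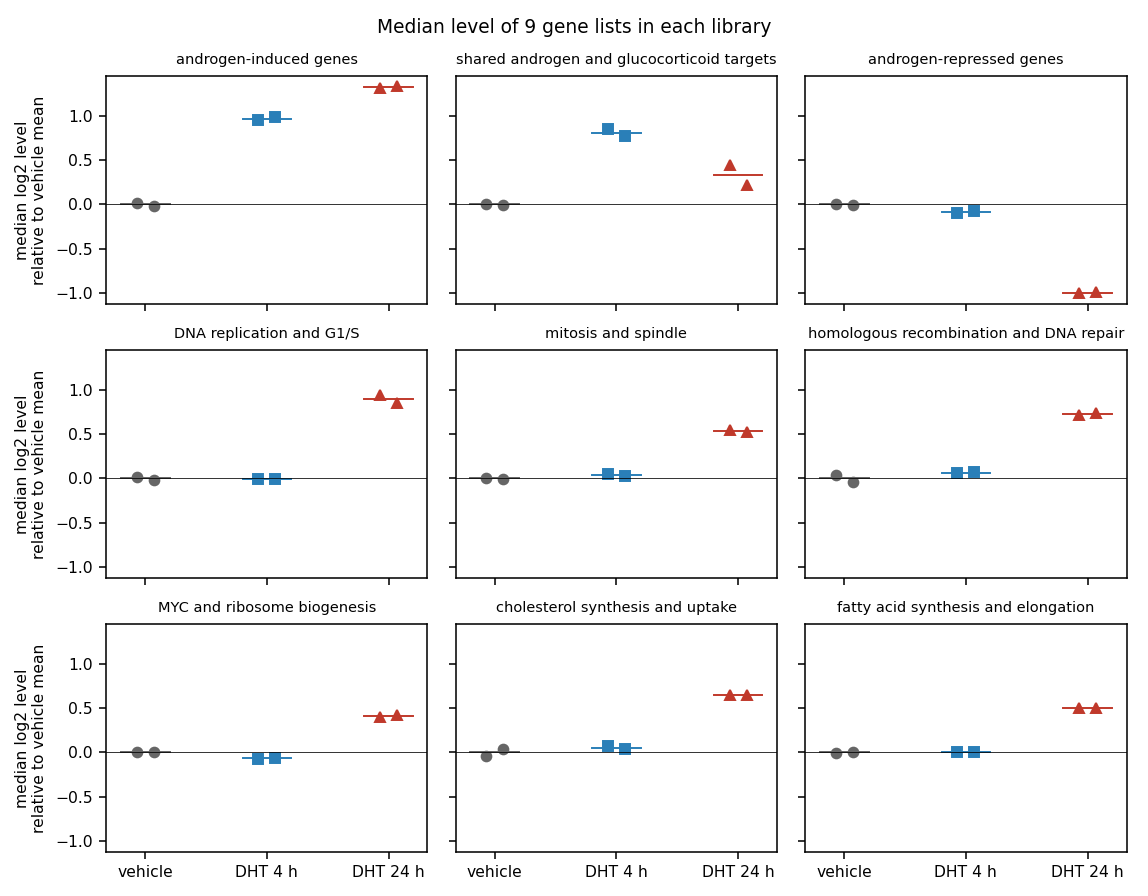
For 9 gene lists, the median over tested members of the log2 CPM (with 0.1 added) relative to the mean of the vehicle libraries, in each vehicle, DHT 4 h and DHT 24 h library (points) with the mean of each group (line). The replication list stands at -0.01 in both 4 h libraries and at 0.94 and 0.85 in the 24 h libraries, whereas the androgen-induced list stands at 0.95 and 0.98 at 4 h and at 1.31 and 1.33 at 24 h.

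Enzalutamide for 24 h, compared with the same vehicle libraries, gave values of the other sign for the 4 replication genes named above. MCM10 had a log2 fold change of -1.70 with enzalutamide and 1.17 with DHT, and E2F8 had -1.93 and 1.20. For KLK2 these values were -1.81 and 4.23, and for TRPM8 -1.87 and 3.62. STEAP4 and HPGD stood at 0.00 with enzalutamide, with an SE of 0.96 and 0.23. STEAP4 had only 2 and 1 counts in vehicle, so its value cannot show whether it fell. HPGD was low in vehicle too, at 0.578 and 0.457 CPM. The 10 largest falls under DHT ran from -0.86 for GAGE7 to 0.55 for VWA2 with enzalutamide, with 0.49 for MAN1A1 and -0.27 for MYLK. GAGE7, whose reads are of uncertain assignment, had an SE of 0.45 and did not pass (edgeR adjusted p = 0.166). Nor did GAGE5, GAGE2A, SLC6A20, PLD1 and ADM pass with enzalutamide. By the column names both enzalutamide 24 h libraries belong to the same set.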

How the data were processed

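Poly(A) RNA of LNCaP cells was sequenced from a directional library on a HiSeq instrument. The submitters' processing notes name TopHat2 2.0, Partek and the hg19 build, while an annotation version is not given in the sources used here. In each table, the authors deposited estimated counts per gene without normalization, in which reads shared between genes were divided, and these were rounded here. Genes absent from one of the tables (1967 from the vehicle table, 265 from the ligand tables) were set to 0. Vehicle columns numbered replicate 1 were summed for their shared number. They differed from each other by a mean chi-square per gene of 1.53 to 1.56, against 3.56 to 3.74 from replicate 2. That value grows with depth, and these columns held 18778840 to 21717301 counts, against 38894876 for replicate 2. The DHT 4 h replicates differed by 2.03 at 53145781 and 53779493 counts. These values therefore cannot decide whether the summed columns came from the same culture. The compared libraries held 38894876 to 59985287 counts, which limits the precision of low genes.

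All 10 libraries of 5 conditions were fitted in 1 model with edgeR 4.0.16 (R 4.3.3; quasi-likelihood, TMM factors, default filter), and DESeq2 1.42.0, other scalings, filters, left-out libraries and a replicate block were alternatives. Contrasts were DHT 24 h against vehicle and against DHT 4 h. The step was tested on simulated data. Named genes are the 10 largest rises and falls with an adjusted p below 0.05, a mean level of log2 CPM 1 or more and groups that did not overlap, up to 4 members of each of 30 lists, and fixed genes. Other list members were named after their values were seen. The rule, lists and tests were chosen with earlier results of these data known. Of the listed genes ATP5A1, ATP5B, NPY, GRP and NRG1 were not analysed here, and others were too low to test. Some other genes are not reported here and were left out of lists and named genes. No column of values went unused for a sample (0). Promoter windows came from RefSeq (GRCh38.p14), and figures were drawn with matplotlib 3.10.9.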

Additional observations from a re-analysis of the deposited data

Results flagged for a closer look

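The level after 24 h of DHT differed from that after 4 h, by edgeR's direct test with an adjusted p below 0.05, for 34 of the 38 genes for which that test is reported, 16 of them higher and 18 lower at 24 h. Over all genes 26.3% were higher and 23.5% were lower, and 20 of the 38 were chosen as the largest changes at 24 h, whose libraries also enter this test. Time and set of the column names differ together between these groups. Values in brackets are log2 fold changes of 24 h over 4 h. All 10 of the largest rises were higher at 24 h, and with KLK3 they were CHRNA2 (2.43), ST6GALNAC1 (2.71), HPGD (2.65), LINC01297 (2.62), ZNF812P (2.37), F5 (2.03), TRPM8 (1.79), TRIM49D2 (1.62), TRIM49D1 (1.54), KLK2 (1.43) and KLK3 (1.77). The other genes that were higher were FASN (1.09), FKBP5 (0.75), MYC (0.40), ODC1 (0.15) and CCND1 (0.13). Each of the largest falls was lower at 24 h, GAGE5 (-3.34), GAGE7 (-3.29), GAGE2A (-3.0), SLC6A20 (-2.78), VWA2 (-2.44), KCNU1 (-2.42), MAN1A1 (-2.36), MYLK (-2.35), PLD1 (-2.16) and ADM (-1.33). Further genes that were lower were UGT2B15 (-1.09), UGT2B17 (-0.99), FOLH1 (-0.66), SLC7A11 (-0.39), FOXA1 (-0.24), CDKN1A (-0.20) and HSPA5 (-0.12). TMPRSS2 (-0.21) was lower at 24 h than at 4 h although it stood far above vehicle at both times. The remaining genes, NR3C1, GATA2, HOXB13 and IGF1R, did not pass. NR3C1 did without DHT 24 h replicate 1 (-1.03, adjusted p = 0.0423) and IGF1R did with library size alone (-0.13, adjusted p = 0.026). The calls of TRIM49D1 and TRIM49D2 were lost with the set as a term (adjusted p = 0.114 and 0.49), and that of TRIM49D2 also with DESeq2 (adjusted p = 0.277).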

How the results depend on the processing

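In the 17 alternatives (1 of them, the set of the column names as a term, chosen after seeing the data) the counts of genes at an adjusted p below 0.05 and by the 2-fold rule stayed within 1.5 times those given, except under a filter of CPM of at least 1 in 2 libraries, where 210 genes were higher and 307 lower by the 2-fold rule, since fewer genes (13429) were tested. Leaving out 1 library gave 3465 to 3686 rises and 2835 to 3061 falls at an adjusted p below 0.05. Every list count of 10 or more against vehicle stayed within the same limit, and 31 of 1020 values, all for counts of 6 or fewer, moved further. Without vehicle replicate 1 the falls went from 3 to 5 for polyamine metabolism, from 1 to 2 for cholesterol, from 2 to 1 for ER folding (also without DHT 24 h replicate 2) and from 3 to 1 for IGF, ErbB and FGF genes (also with DESeq2 and without DHT 24 h replicate 1), and the rises of nuclear receptors from 5 to 3. Without DHT 24 h replicate 1 the falls of adhesion genes went from 4 to 2 and 1 citrate cycle gene fell. The rises of ATF4 targets went from 2 to 1 without DHT 24 h replicate 1 or vehicle replicate 2, 1 neuroendocrine marker rose without DHT 24 h replicate 2, and MED28 lost its fall without either vehicle replicate or DHT 24 h replicate 2. With the set as a term the rises of MAPK genes went from 6 to 3. The calls of CDKN2B, AKR1C3, NR2F1, IGFBP5, SPRY4, EGR1 and CCND1 against vehicle were also lost in that setting. Falls over 4-fold were 131 without DHT 24 h replicate 1, 45 under the CPM filter and 164 with no filter. Of 2217 values of named genes against vehicle, 53 lost the call, 7 gained it and none changed sign. Against 4 h the sign changed for HOXB13 with library size alone (0.00) and for GATA2 without DHT 24 h replicate 1 (0.01, range -0.06 to 0.01 over the left-out libraries) and with the set as a term (0.01). None of these passed the test, and the cause was not tested. The replicate numbers did not pair the libraries, with a correlation of deviations of 0.031 between DHT 24 h and vehicle, and the replicate block gave 4065 rises and 3487 falls, and 325 and 587 genes by the 2-fold rule. Where a lone library remained, it was assumed to vary like the other groups.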

Other observations

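Genes were also grouped by the letters of their symbol before the first digit, which gave 140 families with at least 12 tested members, and the families named here were chosen after their values were seen. Nucleoporins (NUP) rose in 18 of 22 and fell in 1, with a median log2 fold change of 0.34. Over all genes 26.9% rose and 23.2% fell. Inner membrane translocases of mitochondria (TIMM) rose in 12 of 15 (median 0.29). Large mitochondrial ribosomal proteins (MRPL) rose in 31 of 51 (median 0.18) and small ones (MRPS) in 18 of 30 (median 0.17). Enzymes that build the N-linked sugar precursor (ALG) rose in 10 of 15 (median 0.25). The RNA-binding LSM proteins rose in 9 of 13 (median 0.20). All of these changes in the named families were under 2-fold. With library size alone fewer members rose, 17 of 22 for NUP, 10 of 15 for TIMM and 25 of 51 for MRPL. For MRPS, ALG and LSM the rises were then 14 of 30, 8 of 15 and 7 of 13. Over all genes 3314 of 15555 rose with that scaling.

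Of these families PCDHB had the largest share of falls. It belongs to the clustered protocadherins, cell surface adhesion proteins of neurons and epithelia. PCDHB genes fell in 13 of 17 (median -0.65), as PCDHB15 did from 4.26 and 4.54 CPM to 2.10 and 1.81 CPM, and PCDHGA genes in 7 of 12 (median -0.57). Semaphorins (SEMA) fell in 8 of 16, histone genes (HIST) in 22 of 49, with 5 rises, and collagens and other COL symbols in 10 of 24. Protocadherin and histone genes are similar in sequence, and reads shared by them were divided by the counting, so single members are uncertain. The libraries were selected for poly(A) RNA, so histone RNA without a poly(A) tail was largely left out. The HIST counts are therefore no measure of all histone RNA. Library size alone in place of TMM left the sign of each median given here unchanged. With DESeq2 the falls were 5 of 16 for SEMA and 14 of 49, with 3 rises, for HIST.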
